A study of Mus musculus with 52 samples.

Results

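The 10 endothelial marker genes described here were Pecam1, Cdh5, Esam, Kdr, Flt1, Tek, Tie1, Eng, Vwf and Emcn, out of 39144 genes listed in either of the deposited expression tables. They were chosen by name, as genes widely used to recognise the cells that line blood vessels. Polyadenylated RNA was sequenced from male mice of a C57BL/6J/129S6 background with and without the Tug1 locus, which makes a long noncoding RNA. In Tug1-/- mice (allele Tug1_tm1.1Vlcg) a lacZ reporter stands in the place of the Tug1 gene body, and the promoter and the first exon remain. Group means from 46 samples were read: primary mouse embryonic fibroblasts (MEFs, passage 2), heart, spleen, liver and eyes with 3 samples per genotype, prostate with 3 samples of wild type and 2 of Tug1-/-, and testes with 4 wild-type mice, 4 Tug1-/- mice and 3 rescue mice. Rescue mice were Tug1-/-, carried a Tug1 cDNA transgene together with CAGs-rtTA3, a ubiquitously driven activator, and were fed doxycycline to switch the transgene on. The labels give the Tug1-/- and rescue testes as carrying Neo and LacZ and the wild-type testes as without Neo, so that cassette and genotype cannot be told apart in testes; the other groups are labelled N3-C57BL/6J without Neo. MEFs came from mid-gestation littermate embryos; ages of the mice whose organs were sequenced are not given in the sources used here. Brain values came from an earlier data set, not from samples of this series. Testes of F1 hybrid mice, 6 samples, were not analysed here.

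Endothelial cells form the inner lining of every blood vessel and are held together by junction proteins, of which VE-cadherin (Cdh5) is the defining one. They respond to vascular endothelial growth factor (VEGF) through the receptor tyrosine kinases Kdr (VEGFR2) and Flt1 (VEGFR1), and to the angiopoietins through Tek (TIE2) and its partner Tie1. Eng (endoglin) is a co-receptor for ligands of the TGF-beta family, Vwf is stored and released to capture platelets at sites of injury, and Emcn is a sialomucin found mainly on capillaries and veins. Several of the 10 are also made outside endothelium: Pecam1, Esam and Vwf by platelets and their precursors the megakaryocytes, and Eng by several stromal and blood cells.

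Kdr lies on chr5:75932827-75978458 and Flt1 on chr5:147561604-147726011, both on the minus strand, and Tek lies on chr4:94739289-94874976 on the plus strand (GRCm38). Pecam1 (chr11:106654217-106750628) shares a chromosome with Tug1, and all 10 are annotated as protein coding. In the RefSeq promoter table (GRCm38.p6) 6 of the 10 matched by symbol: Kdr, Flt1, Tek, Tie1, Eng and Emcn. The 250 bases before the annotated start were searched for AGGAA and its reverse complement TTCCT. This is 1 form of the shorter GGAA core that ETS factors, among them Erg and Fli1 of endothelium, are known to bind. No other form of that core and no other motif was searched. At least 1 match was found in 5 of the 6 windows, and in 60.3% of the 32851 windows of the same length in the table. The windows of the VEGF receptors, of which Kdr was the 1 window of the 6 without a match, and of Tek are shown. The Kdr window does hold GGAA and its reverse complement TTCC, which were not searched for. Whether a match bears on the expression of a gene was not tested. Each is printed 5′ to 3′ on the strand of the gene, with matches in capitals.
Kdr (chr5:75978456-75978705, minus strand): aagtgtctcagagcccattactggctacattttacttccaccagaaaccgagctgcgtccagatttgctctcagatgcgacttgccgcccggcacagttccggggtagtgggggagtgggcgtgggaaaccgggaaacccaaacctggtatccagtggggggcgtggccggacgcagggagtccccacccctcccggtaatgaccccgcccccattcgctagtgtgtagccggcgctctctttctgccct
Flt1 (chr5:147726012-147726261, minus strand): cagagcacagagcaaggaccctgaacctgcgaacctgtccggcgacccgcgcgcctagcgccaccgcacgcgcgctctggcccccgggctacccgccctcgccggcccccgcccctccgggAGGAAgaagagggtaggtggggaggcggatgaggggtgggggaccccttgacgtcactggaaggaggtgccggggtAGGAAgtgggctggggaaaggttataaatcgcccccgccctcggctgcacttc
Tek (chr4:94739039-94739288, plus strand): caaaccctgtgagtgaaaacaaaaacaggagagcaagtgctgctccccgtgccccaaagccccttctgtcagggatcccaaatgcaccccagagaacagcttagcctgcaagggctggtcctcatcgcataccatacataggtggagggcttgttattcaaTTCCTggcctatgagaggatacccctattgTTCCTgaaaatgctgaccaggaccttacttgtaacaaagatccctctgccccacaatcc
Flt1 held 2 matches of AGGAA and Tek 2 of TTCCT, while Emcn held 4 in all. A match of 5 letters is a description of the window and not a binding site. As the expression tables place the genes, 212 of the 250 bases of the Tie1 window, 11 of the Emcn window and 3 of the Kdr window lie inside the gene.

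Values were deposited as group means in TPM (transcript abundance scaled to a fixed total per sample), a share of all transcripts that is corrected for gene length, so levels of different genes can be set side by side. No values of single samples were read, so no spread between replicates was computed, no difference below was tested, and depth per sample is unknown. A difference is the log2 ratio of the group means after adding 0.1 TPM to each, and it was taken only for genes of at least 1 TPM in either group. Each count of markers past 1.5-fold is read against the percentage of all genes of that tissue past the same limit. In bulk RNA a change in the number of endothelial cells and a change in RNA per cell cannot be told apart. Of 24 genes chosen to stand for the 8 tissues, 24 had their highest wild-type mean in that tissue. They were chosen with earlier results of these data known, and some were abundant elsewhere, such as Thy1 (827 TPM in MEFs and 683 in brain). Tug1 itself had wild-type means between 10.1 and 57.5 TPM and between 0.0825% and 2.21% of these in Tug1-/- groups. Its testes means were 40.1 TPM in wild type, 0.885 TPM in Tug1-/- and 1.60 TPM in rescue. The all-gene median log2 ratio was beyond 0.1 in eyes (-0.11), spleen (-0.11) and heart (0.10), and marker values in those tissues are also given against it.

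In wild-type mice the markers were most abundant in heart, where their median was 54.4 TPM and their lowest was Emcn at 22.5 TPM. The median was 22.9 TPM in eyes, 21.1 TPM in spleen, 13.3 TPM in brain, 7.27 TPM in liver, 6.41 TPM in prostate and 2.34 TPM in testes. Testes values come from a table of their own, and TPM is a share, so very abundant transcripts such as Alb in liver (97035 TPM) lower the share left to all others. The order of tissues is therefore a description, without a spread to separate neighbours. Over the 17 group means, log2 levels of the 45 pairs of markers had a median Pearson r of 0.67, ranging from -0.05 to 0.98. Tie1, which has no row in MEFs, was set to 0 TPM there. Without the 2 MEF means the median was 0.80 and the lowest 0.52. These means share tissues and, within a tissue, an RNA source, so r describes the tissues and has no p.

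**Figure D1:**
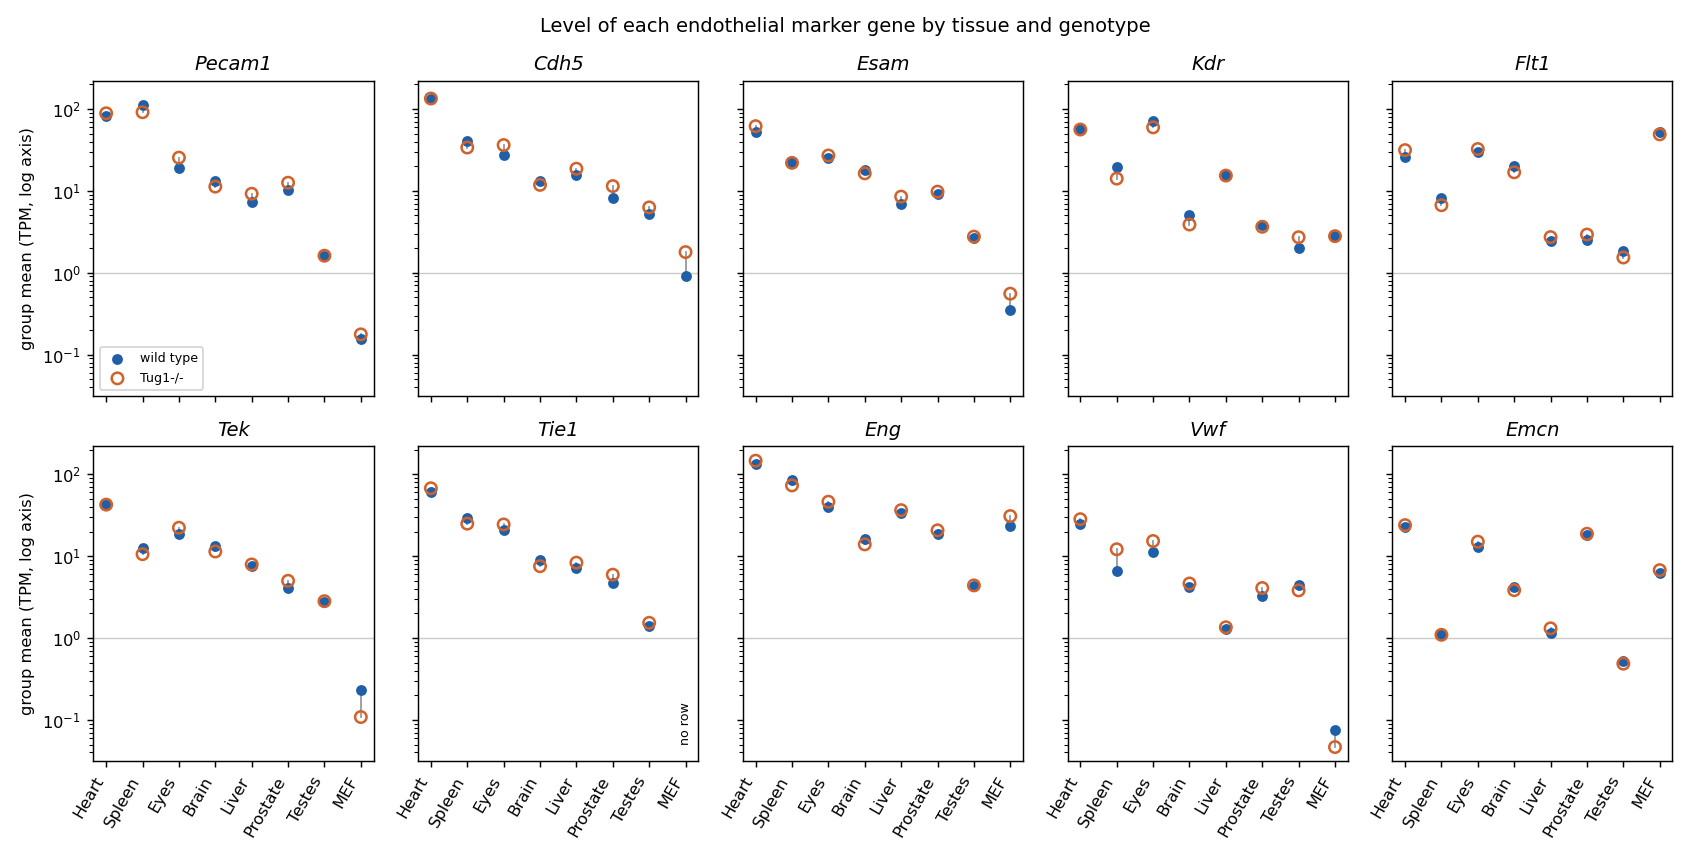
Group mean TPM (log axis) of each of the 10 marker genes in 8 tissues, filled points wild type and open points Tug1-/-, joined by a line; means have no error bars because only group means were read, and the grey line marks 1 TPM. Points of the 2 genotypes lie close together in nearly every tissue, Vwf in spleen (6.63 against 12.1 TPM) and Cdh5 in MEFs (0.908 against 1.79 TPM) being the pairs that stand furthest apart among values of at least 1 TPM.

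The junction and adhesion genes were lowest in testes and MEFs. Cdh5, the adherens junction cadherin of endothelium, had a wild-type mean of 131 TPM in heart, 40.1 in spleen, 27.4 in eyes, 15.5 in liver, 13.3 in brain, 8.06 in prostate, 5.28 in testes and 0.908 in MEFs. Esam, an adhesion molecule of tight junctions and of platelets, went from 51.7 TPM in heart to 2.66 in testes and 0.349 in MEFs. Pecam1, an adhesion molecule of endothelium, platelets and leukocytes, was the 1 gene of the 3 with its highest mean in spleen, at 113 TPM against 82.6 TPM in heart. Its mean in testes was 1.59 TPM and in MEFs 0.153 TPM.

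Unlike the junction and adhesion genes, the VEGF receptors had their highest means outside heart and spleen. Kdr was, like those genes, lowest in testes and MEFs. Kdr, the main signalling receptor for VEGF-A, had its highest wild-type mean in eyes, at 72.0 TPM against 56.98 TPM in heart, and its lowest in testes at 2.02 TPM. Flt1, which binds VEGF-A tightly and also exists as a secreted decoy, had its highest mean in MEFs at 51.8 TPM, above eyes (29.7), heart (25.96) and brain (19.9). Its means in prostate (2.54), liver (2.46) and testes (1.84 TPM) were its lowest.

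The angiopoietin receptor Tek and its partner Tie1 ran in parallel, with an r of 0.95 over the 15 means outside MEFs. This was not particular to the pair, since Tie1 had an r of 0.97 with Esam and with Eng over the same means. Tek had a wild-type mean of 43.2 TPM in heart, 18.4 in eyes, 13.3 in brain, 12.5 in spleen, 7.49 in liver, 4.12 in prostate, 2.78 in testes and 0.229 in MEFs. Tie1 had 61.2 TPM in heart, 29.6 in spleen and 1.42 in testes, and no row in the MEF table. Eng was among the most abundant markers, with 133 TPM in heart, 86.1 in spleen and 4.28 in testes, and it remained at 23.2 TPM in MEFs. Vwf reached 24.8 TPM in heart and 11.2 TPM in eyes, and was at 1.29 TPM in liver and 0.0763 TPM in MEFs. Emcn had its highest mean in heart too (22.5 TPM), followed by prostate (18.2) and eyes (12.9), and was near the minimum in liver (1.16) and spleen (1.12) and under it in testes (0.519 TPM).

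MEFs held only some of the markers. In MEFs 5 of the 10 markers reached 1 TPM in either genotype, of which Flt1, Eng, Emcn and Kdr did so in wild type and Cdh5 in Tug1-/-. Pecam1, Esam, Tek and Vwf had means of 0.554 TPM or less in both genotypes and Tie1 had no row. The list of 18 other pan-endothelial genes summed to 154 TPM in wild-type and 136 in Tug1-/- cultures. Which cells of these cultures gave the marker reads was not tested.

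Over the 8 tissues, 79 pairs of means were listed and 74 passed the minimum; 2 were 1.5-fold or more higher in Tug1-/- and 0 were 1.5-fold or more lower. Over the same tissues 3.49% of all gene values lay 1.5-fold or more higher and 3.7% lower, so the count of higher markers is near the share of all genes. The 2 were Vwf in spleen and Cdh5 in MEFs. The median of the markers was above 0 in 6 tissues and below 0 in spleen and brain, and it stayed between -0.24 and 0.24 on the log2 scale in all 8.

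**Figure D2:**
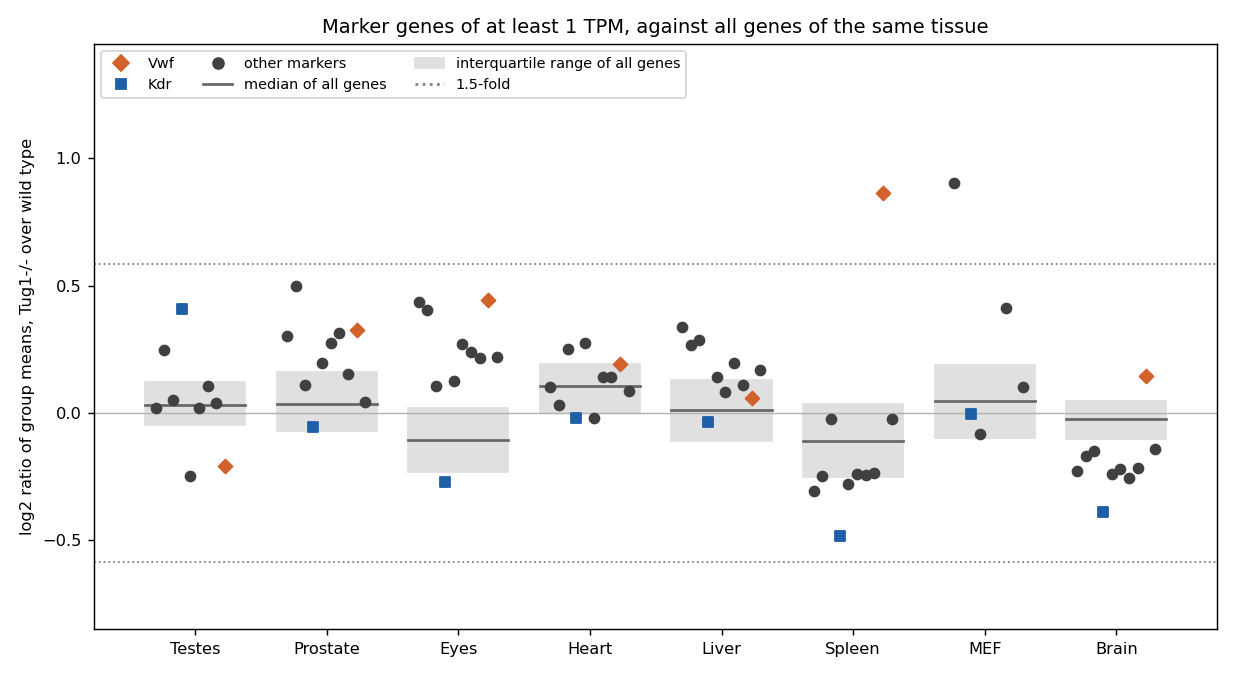
Log2 ratio of group means, Tug1-/- over wild type, for the marker genes of at least 1 TPM in each tissue (points; Vwf orange diamonds, Kdr blue squares), with the median (bar) and interquartile range (grey box) of all genes of at least 1 TPM and dotted lines at 1.5-fold. In eyes 9 of 10 markers lie above the all-gene median and in brain 9 of 10 lie below it. Kdr is the lowest marker in 6 of the 8 tissues, in heart nearly level with Tek.

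In prostate 9 of 10 markers had a higher mean in Tug1-/- mice, with a median log2 ratio of 0.24 against 0.04 for all 15547 genes. None reached 1.5-fold, where 5.32% of all genes lay higher and 2.67% lower. Cdh5 came nearest, with 8.06 TPM in wild-type and 11.4 in Tug1-/- samples (log2 ratio 0.50), followed by Vwf (3.23 and 4.08 TPM, 0.33) and Tie1 (4.76 and 5.94 TPM, 0.31). Kdr was the exception at 3.79 and 3.64 TPM (-0.06). The macrophage list differed more in the same samples, with 6 of 8 genes 1.5-fold or more higher, a median of 0.64, and a summed level of 164 TPM in wild-type and 258 in Tug1-/- samples. All 6 fibroblast genes and 8 of 9 mural cell genes (pericytes and smooth muscle) were higher as well, with medians of 0.33 and 0.19. The part of these lists in the marker values was not tested.

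In eyes 9 of 10 markers were again higher in Tug1-/- mice, with a median of 0.23. Against the all-gene median of -0.11 that difference was 0.34, the largest of the 8 tissues. None reached 1.5-fold, where 3.19% of all 19709 genes lay higher and 4.68% lower. Vwf (11.2 and 15.3 TPM, log2 ratio 0.44), Pecam1 (18.8 and 25.4 TPM, 0.44) and Cdh5 (27.4 and 36.2 TPM, 0.40) had ratios above those of 95.4%, 95.3% and 94.8% of all genes. Kdr, the most abundant marker there, went the other way, from 72.0 TPM in wild type to 59.6 TPM in Tug1-/- (-0.27), 0.51 below the median of the other 9. Of 5 platelet genes that passed, Ppbp (1.27 and 7.52 TPM), Gp9 (0.625 and 2.46 TPM) and Pf4 (12.3 and 25.2 TPM) were over 1.5-fold higher, while Itga2b was at 3.35 and 3.40 TPM and Gp1bb was lower at 8.95 and 6.32 TPM (-0.50). The list summed to 26.8 TPM in wild-type and 45.5 in Tug1-/- samples. All 8 macrophage genes were higher too, with a median of 0.38 and sums of 331 and 418 TPM. Of the fibroblast genes 2 of 6 were higher, with a median of -0.12, and of the mural cell genes 5 of 9, with a median of 0.03. The muscle actin gene Actc1 was at 244 and 448 TPM in the same samples. The part of other tissue and of these lists in the values of Vwf and Pecam1 was not tested.

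In liver 9 of 10 markers were higher, with a median of 0.15 against 0.01 for all 12121 genes; none reached 1.5-fold, where 3.37% lay higher and 2.65% lower. The junction genes led, Pecam1 with 7.28 and 9.22 TPM (0.34), Esam with 6.96 and 8.50 TPM (0.29) and Cdh5 with 15.5 and 18.6 TPM (0.27). Kdr was at 15.8 and 15.4 TPM (-0.04). The 8 macrophage genes were all higher there too, with a median of 0.49, as were 5 of 6 fibroblast genes (median 0.24), 5 of 7 mural cell genes (0.19) and 2 of 3 platelet genes (0.53). Their part in the marker values was not tested.

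In heart, the tissue with the highest levels, the markers did not stand apart. Their median was 0.12 against 0.10 for all 14004 genes, 5 of 10 lay above that all-gene median, and none reached 1.5-fold, where 2.08% lay higher and 2.49% lower. Flt1 (25.96 and 31.4 TPM, 0.28) and Esam (51.7 and 61.6 TPM, 0.25) were highest, and Kdr (56.98 and 56.1 TPM) and Tek (43.2 and 42.6 TPM) were at -0.02. Cdh5 was at 131 and 134 TPM. The 8 macrophage genes were all higher there as well, with a median of 0.45. The 3 B cell genes were all 1.5-fold or more lower (Cd79b 17.4 and 7.76 TPM), and 1 of 6 platelet genes was higher. Mural cell and fibroblast genes had medians of -0.02 and -0.04. The part of these lists in the marker values was not tested. The average normalised read count behind the marker means was between 2558 for Emcn and 11388 for Eng. The median of these counts, 8182, was the highest of the 7 tissues that list one.

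In brain 9 of 10 markers had a lower mean in Tug1-/- mice, with a median of -0.22 against -0.03 for all 17729 genes; none reached 1.5-fold, where 2.19% lay higher and 3.94% lower. The values lay close together, from Tie1 (9.03 and 7.54 TPM, -0.26) to Emcn (4.25 and 3.84 TPM, -0.14), with Kdr lowest (5.12 and 3.88 TPM, -0.39) and Vwf the 1 marker higher (4.18 and 4.64 TPM, 0.14). Mural cell genes had a median of -0.26 and the 6 genes of blood-brain barrier endothelium one of -0.10, with 0 of 6 higher.

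In spleen the markers split. Vwf was at 6.63 TPM in wild-type and 12.1 in Tug1-/- samples, a log2 ratio of 0.86 and 1.82-fold, higher than the ratios of 97.1% of all 17260 genes, and with an average normalised read count of 2282. It was the 1 marker of 10 past 1.5-fold, where 5.4% of all genes lay higher and 5.07% lower. The other 9 were all lower in Tug1-/-. Kdr had the lowest ratio (19.8 and 14.1 TPM, -0.49), Pecam1 was at 113 and 91.2 TPM (-0.31), Flt1 at 8.13 and 6.67 TPM (-0.28), Cdh5 at 40.1 and 33.8 TPM (-0.25) and Eng at 86.1 and 73.1 TPM (-0.24). Esam and Emcn lay nearest to no difference, at -0.02 and -0.03. The marker median of -0.24 was 0.13 below the all-gene median of -0.11, and 3 of 10 markers lay above the latter.

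Platelet and megakaryocyte genes lay with Vwf in spleen. All 7 of that list were 1.5-fold or more higher in Tug1-/-, with a median log2 ratio of 0.92 and log2 ratios from 0.72 to 1.02. The chemokine gene Ppbp was at 331 TPM in wild-type and 669 in Tug1-/- samples, Pf4 (platelet factor 4) at 147 and 279 TPM, and the integrin gene Itga2b at 26.8 and 45.02 TPM. The list summed to 572 TPM in wild-type and 1112 in Tug1-/- samples. Of 18 other pan-endothelial genes, 1 was over 1.5-fold higher, and it was Selp (P-selectin, stored in the same granules as Vwf in endothelium and also in platelets), at 2.59 and 5.11 TPM; the list median was -0.29. Of 10 endothelial transcription factors, 1 was, Tal1, which megakaryocyte and red cell precursors also use, at 29.1 and 71.2 TPM. Mural cell genes (0 of 8 higher, median -0.33) and fibroblast genes (1 of 6 higher, median -0.44) lay on the side of the other 9 markers. The B cell gene Cd79a (1295 and 947 TPM) was lower too. Alb, a liver gene, was at 16.4 TPM in the wild-type spleen mean and 0.0843 TPM in Tug1-/-. What part these cells have in the marker values was not tested. In heart, brain and testes the platelet list and Vwf lay on opposite sides of 0: the list median was -0.16 in heart and -0.23 in brain, where Vwf was at 0.19 and 0.14, and 0.53 over 3 genes in testes, where Vwf was at -0.21. In eyes, prostate and liver they lay on the same side, with list medians of 1.02, 0.22 over 2 genes and 0.53 over 3 genes where Vwf was at 0.44, 0.33 and 0.06.

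**Figure D3:**
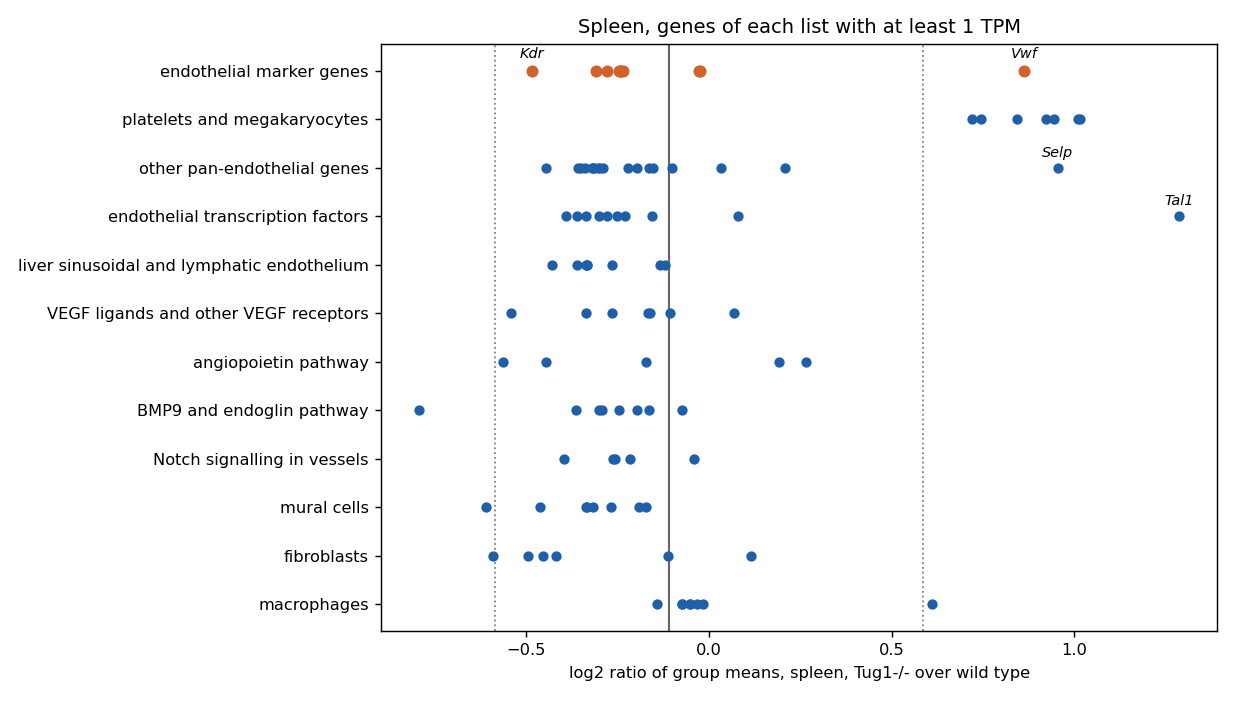
Log2 ratio of group means in spleen, Tug1-/- over wild type, for every gene of at least 1 TPM in the marker list (orange) and in 11 other lists (blue); the solid line is the median of all genes (-0.11) and the dotted lines are 1.5-fold. Vwf lies with the platelet and megakaryocyte genes, between 0.72 and 1.02, and the other 9 markers lie at or under -0.02 with most vascular and stromal genes.

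In MEFs 1 of 5 markers that passed was over 1.5-fold higher in Tug1-/-, where 3.82% of all 14824 genes lay higher and 3.91% lower. It was Cdh5, at 0.908 TPM in wild-type and 1.79 in Tug1-/- samples (log2 ratio 0.90), with an average normalised read count of 58.4, the lowest behind any marker that passed in a table that lists one. The count was 0 with a pseudocount of 1 TPM, a minimum of 5 TPM or a 2-fold limit. Eng was at 23.2 and 30.9 TPM (0.41), Emcn at 6.28 and 6.75 TPM (0.10), Kdr at 2.81 and 2.79 TPM (-0.01) and Flt1 at 51.8 and 48.9 TPM (-0.08). The endothelial transcription factor Erg went the other way from Cdh5, at 1.76 and 0.678 TPM. The macrophage list summed to 443 TPM in wild-type and 346 in Tug1-/- cultures.

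In testes 9 of 10 markers passed the minimum and Emcn did not. Between Tug1-/- and wild type none reached 1.5-fold, where 2.75% of all 22378 genes lay higher and 3.51% lower, and the median was 0.04 against 0.03 for all genes. Kdr had the highest ratio here, at 2.02 and 2.71 TPM (0.41), and Flt1 the lowest, at 1.84 and 1.53 TPM (-0.25). Cdh5 was at 5.28 and 6.28 TPM (0.25) and Vwf at 4.43 and 3.82 TPM (-0.21). Pecam1, Esam, Tek and Eng lay between 0.02 and 0.05.

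Rescue testes were compared with both other groups, and the 2 comparisons share the rescue mice. Against Tug1-/-, none of 9 markers reached 1.5-fold, where 1.42% of 22180 genes lay higher and 3.22% lower, and the median was -0.03. Against wild type, none did, where 2.79% of 22393 genes lay higher and 5.14% lower, and the median was -0.03. Esam was the lowest marker in both, at 1.95 TPM in rescue against 2.76 in Tug1-/- and 2.66 in wild type (log2 ratios -0.48 and -0.43). Eng was the highest in both, at 5.27 TPM in rescue against 4.395 and 4.28 TPM (0.26 and 0.29). Kdr and Cdh5, the markers with the highest ratios between Tug1-/- and wild type, were at 2.45 and 6.15 TPM in rescue. Macrophage genes were higher in rescue than in wild type by a median of 0.53, and in Tug1-/- than in wild type by 0.37, with summed levels of 84.6 TPM in wild type, 110 TPM in Tug1-/- and 121 TPM in rescue.

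**Figure D4:**
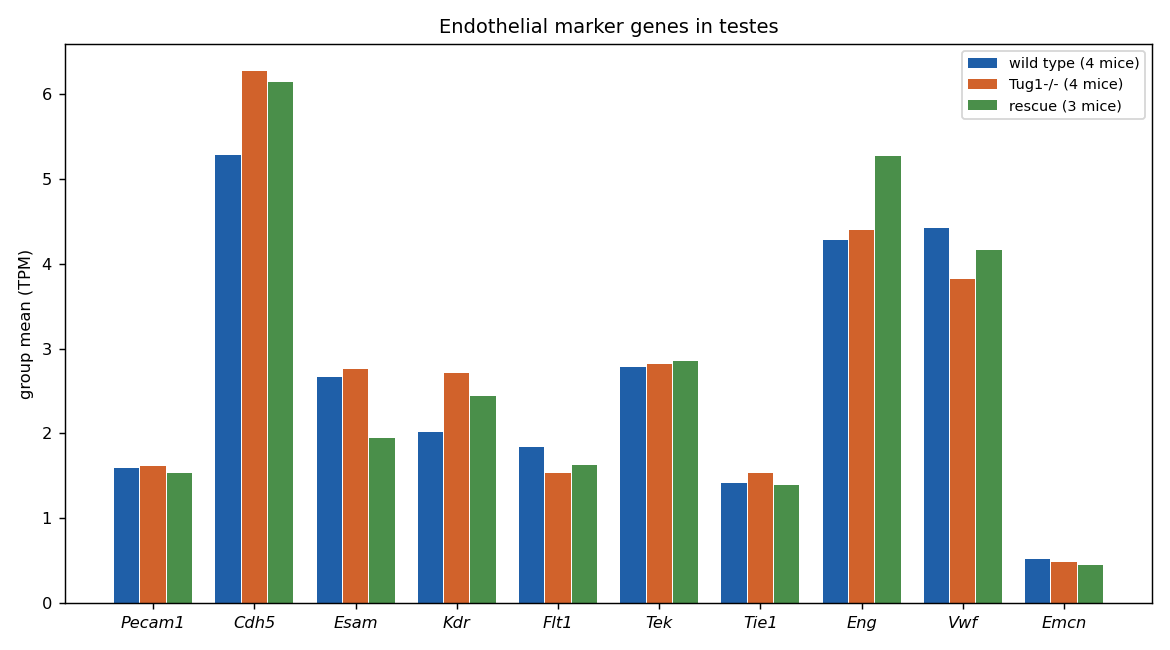
Mean TPM of each marker gene in testes (blue, 4 wild-type mice; orange, 4 Tug1-/- mice; green, 3 rescue mice; bars start at 0; no error bars, since only group means were read). All means lie between 0.449 and 6.28 TPM, and no marker differs by 1.5-fold between any 2 groups.

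Read gene by gene, Kdr stood at the lower edge of the markers. It was the lowest of the markers that passed in 6 of 8 tissues (prostate, eyes, heart, liver, spleen and brain), next to lowest in MEFs and highest in testes. Its distance from the median of the other markers was -0.51 in eyes, -0.33 in prostate, -0.24 in spleen, -0.20 in liver, -0.17 in brain and -0.16 in heart, and 0.38 in testes. In heart Tek was nearly level with Kdr, also at a distance of -0.16. Flt1, the other VEGF receptor of the list, was higher in 4 tissues and lower in 4. Vwf was higher in 6 of 7 tissues and the highest marker in eyes, spleen and brain; it lay 1.11 above the median of the others in spleen and 0.36 above it in brain. Cdh5 and Eng were higher in 6 of 8 tissues, and Pecam1, Esam, Tie1 and Emcn in 5 of 7. Tek was higher in 4 of 7. These tallies count raw signs, and the share of all genes that were higher ran from 27.7% in eyes to 74.8% in heart. Against the all-gene median some signs turned: Pecam1 and Cdh5 in heart lay below it, and Esam in spleen lay above it. Kdr and Vwf were singled out after their values were seen, and without values of single mice these distances cannot be set against the spread between mice.

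Pathway genes around the receptors are given beside the same pooled shares of all genes, 3.49% higher and 3.7% lower. Of 8 other VEGF ligands and receptors, 60 values passed over the 8 tissues, 1 was over 1.5-fold higher (Pgf, placental growth factor, in heart, 4.33 and 6.96 TPM) and 1 lower (Pgf in MEFs, 11.6 and 7.30 TPM). Vegfa, the main ligand of Kdr, was at 6.27 TPM in wild-type testes, 4.18 in Tug1-/- and 3.62 in rescue. It was the lowest of its list between Tug1-/- and wild type in testes (log2 ratio -0.57), where Kdr was at 0.41, in liver (-0.05), where Kdr was at -0.04, and in spleen (43.2 and 29.6 TPM, -0.54), where Kdr was at -0.49, and the highest of its list in MEFs (0.55), where Kdr was at -0.01. In prostate, eyes, heart and brain Vegfa was neither the highest nor the lowest of its list and is not given. No relation of ligand and receptor can therefore be read from these values. In the angiopoietin pathway, Angpt1, the activating ligand of Tek, was at 0.841 and 1.34 TPM in prostate and at 1.41 and 0.640 TPM in MEFs, the 2 values of 34 past 1.5-fold. In the BMP9 and endoglin pathway 2 of 67 values were over 1.5-fold higher, Bmp10 in heart (57.4 and 94.3 TPM), a ligand made by atrial muscle, and Id1 in liver (18.4 and 29.5 TPM); Smad6 in spleen was lower (3.51 and 1.98 TPM). Notch genes of vessels gave 0 of 41 values past the limit in either direction.

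The medians of the 18 other pan-endothelial genes were 0.24 in eyes, 0.22 in prostate, 0.18 in liver, 0.11 in heart, 0.03 in testes, -0.18 in brain, -0.29 in spleen and -0.26 in MEFs, beside all-gene medians of -0.11, 0.04, 0.01, 0.10, 0.03, -0.03, -0.11 and 0.05 in the same order. Of 117 values, 4 were over 1.5-fold higher and 2 lower. Robo4, a guidance receptor of endothelium, was at 0.725 TPM in wild-type testes, 2.26 in Tug1-/- and 2.20 in rescue. Cldn5, the claudin of endothelial tight junctions, was at 34.9 and 22.3 TPM in heart (log2 ratio -0.64), where Cdh5 was at 0.03 and Esam at 0.25, and at 49.1 and 35.4 TPM in eyes (-0.47). Gpihbp1, which carries lipoprotein lipase across capillaries, was at 3.85 and 7.45 TPM in eyes. S1pr1 in prostate was at 5.48 and 8.48 TPM, and Cd34 in MEFs at 5.15 and 2.62 TPM. Endothelial transcription factors were past the limit in 4 of 71 values: Erg in prostate (1.46 and 2.36 TPM) and Gata2 in MEFs (5.06 and 8.01 TPM), beside Tal1 in spleen and Erg in MEFs. Among genes of liver sinusoids and lymphatics, Lyve1 was over 1.5-fold higher in prostate, heart and liver (9.78 and 16.1, 21.4 and 33.2, 6.28 and 9.58 TPM) and Stab1 in prostate (4.50 and 7.10 TPM); macrophages also make both. Of the blood-brain barrier list, Mfsd2a was the gene past the limit, lower in testes (12.7 and 6.89 TPM) and higher in prostate (16.8 and 33.6 TPM) and liver (61.8 and 105 TPM).

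**Figure D5:**
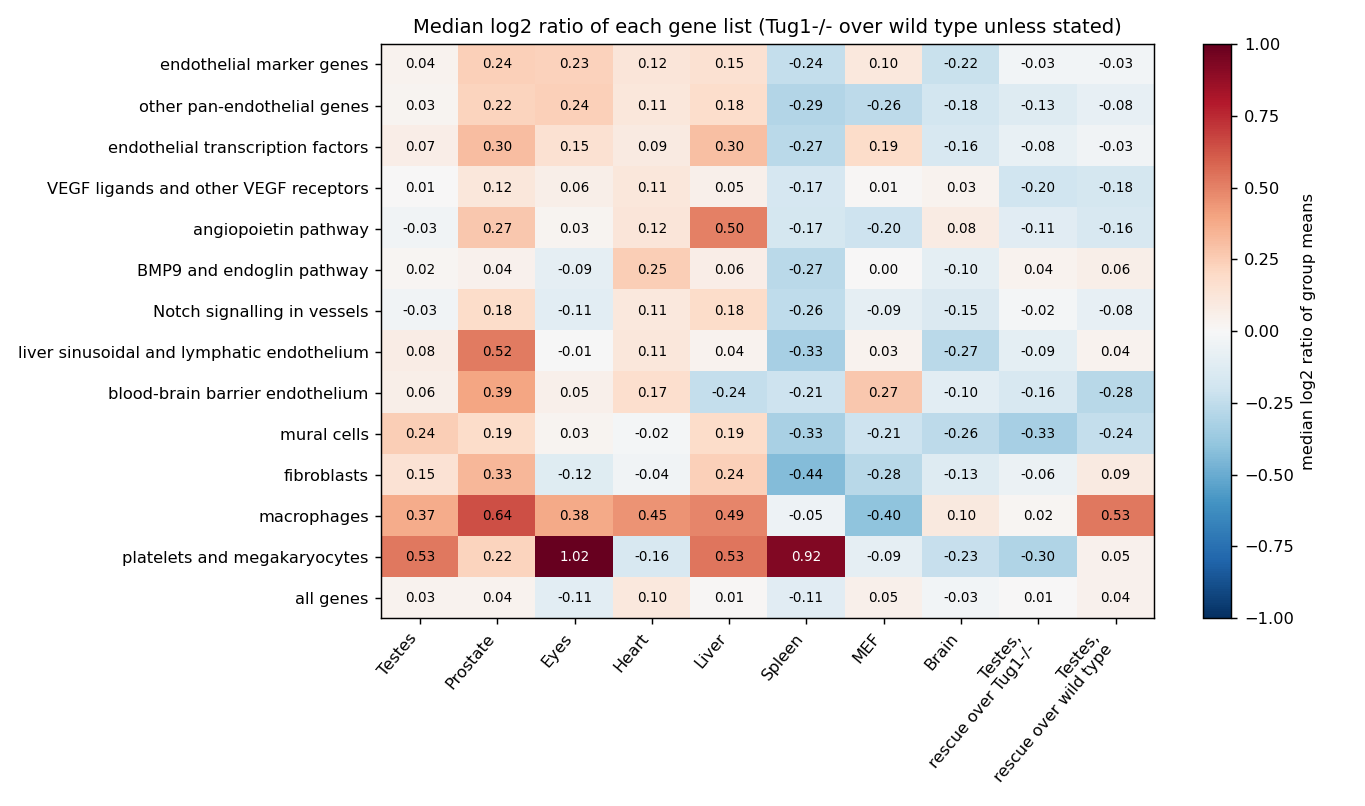
Median log2 ratio of group means of each gene list (rows) in each comparison (columns; Tug1-/- over wild type unless stated), for genes of at least 1 TPM; colour runs from blue (lower) to red (higher) and each cell prints its value. The bottom row gives all genes, whose medians lie between -0.11 and 0.10; macrophage genes are highest in prostate at 0.64, and the platelet list reaches 0.92 in spleen and 1.02 in eyes.

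With genes that have no row in a tissue set to 0 TPM there, the genes whose levels over the 17 means were most like the markers' mean standardised profile, among 9320 genes of at least 1 TPM wherever the marker median was, were Egfl7 (r = 0.97), Abcc9 (0.94), Tmem204 (0.93), Nampt (0.92), Ptprb (0.92), Bloc1s1 (0.92), Coq10a (0.90) and Foxred1 (0.90). Egfl7 and Ptprb are endothelial genes, Abcc9 is a potassium channel subunit of mural cells and heart muscle, and Coq10a had wild-type means of 164 TPM in heart and 9.83 TPM in testes. With a looser minimum chosen after these values were seen, 1 TPM in any group, She (0.97), Egfl7 (0.97), Ramp2 (0.96), Clec1a (0.96), Gm43136 (0.95), Ushbp1 (0.94), Abcc9 (0.94) and Dll4 (0.94) led among 30071 genes.

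Reads of overlapping genes may enter 2 of the markers. The library kit does not mark the strand and the counting is not stated to use it. Eng (chr2:32646595-32682669) overlaps Fpgs on the opposite strand and the short genes Gm26236 and Mir1954 on its own. Cdh5 (chr8:104101625-104144511) overlaps the antisense gene Gm29682. The other 8 markers overlap no gene in the deposited annotation.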

How the data were processed

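Polyadenylated RNA was sequenced from organs and MEFs with the TruSeq RNA v2 kit. Per the labels and the study's methods, the authors used CASAVA 1.8.2, aligned reads with STAR to GRCm38 (mm10) with GENCODE vM16, counted unique reads with featureCounts, removed genes under 3 reads in every replicate and fitted DESeq2. The authors deposited group means in TPM, in 1 table for testes and 1 that stacks the 7 other tissues, where the deposited signal column holds a gene's average normalised count over a tissue's libraries. The deposited tables also hold the authors' fold changes, statistics and p-values, which were not used; 0 columns hold single samples, so samples were grouped by the labels only to state group sizes, and depth per sample, SD and tests are not given. The plan named no test for such means and this was kept.

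Here log2((mean + 0.1) / (mean + 0.1)) was computed for genes of at least 1 TPM in either group, with a limit of 1.5-fold, with Python 3.11.15, pandas 2.3.3 and numpy 2.4.6. The step was checked on simulated folds. The 10 genes and all lists were chosen with earlier results of these data known, and lists share genes (Ptprb and Flt4 stand in 2 each). Named genes were the 10 members, Tug1, the genes with the highest and lowest ratio of each list in a comparison, of which the text gives those that bear on the members, the other list genes past 1.5-fold, and 8 genes by likeness. Alternatives were other pseudocounts, minima, fold limits, centring on the all-gene median, and leaving out each member.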

Additional observations from a re-analysis of the deposited data

How the results depend on the processing

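Direction and side of the 1.5-fold limit were recomputed under other pseudocounts, minima, fold limits and centring. Apart from the counts higher in spleen and in MEFs, every main count of markers past the limit was 0, which stricter settings could not lower. Of 142 recomputed medians 129 kept their sign and moved by less than 0.1 on the log2 scale. With a lower limit, a ratio of means of 5 to 4, 1 marker was higher in testes (Tug1-/- over wild type), 2 in prostate, 3 in eyes, 1 in liver and 2 in MEFs, and 1 was lower in spleen, in brain and in each rescue comparison. With a limit of 2-fold the counts in spleen and MEFs were 0. Cdh5 in MEFs also dropped out (count 0) with a pseudocount of 1 TPM or a minimum of 5 TPM, and with no minimum 1 marker, Tek, was lower there. Centring on all genes gave medians of 0.34 in eyes, 0.017 in heart and -0.13 in spleen. A minimum of 5 TPM left 1 marker in testes (0.25), and 2 in each rescue comparison, whose medians became 0.11 against Tug1-/- and 0.25 against wild type, the reverse of the main sign; fewer genes passed. Leaving out 1 marker at a time gave medians from -0.039 to 0.0035 for rescue over wild type, which turned sign without Pecam1, Esam, Flt1 or Vwf, and from 0.048 to 0.26 in MEFs; in the other comparisons the median moved by less than 0.1 and kept its sign. No paired analysis was possible because the tables hold group means only, and for the same reason no mouse could be left out. Depth per sample is unknown, so how precise a mean is cannot be said. The Tug1-/- prostate mean rests on 2 samples, and some MEF markers lay near 1 TPM. For brain the number of samples is not given here, and its markers had a median normalised count of 262, against 499 in prostate. Testes list no such count.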
